A study of Solanum lycopersicum with 36 samples.

Results

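The members are 150 tomato genes whose polyadenylated mRNA stayed within a narrow band over a day while the number of their uncapped RNA ends did not. They were chosen by their values. In each of 2 assays, counts were turned into counts per 1000000 gene counts (CPM), and the mean of 3 libraries was taken at each of 6 times as log2(mean CPM + 1). A gene met the limits when its mRNA mean was at least 10 CPM at every time, its highest mean in the assay of uncapped RNA was at least 10 CPM, and its highest and lowest mRNA means lay less than 0.6 apart on the log2 scale, which is 1.52-fold in CPM + 1. Of 34075 gene identifiers, 8367 passed the mRNA minimum, 8185 both minima and 1706 all limits, and the 150 with the widest range of uncapped RNA over the 6 times were taken. The other 1556 genes that met the limits are called the rest.

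The leaves came from tomato, Solanum lycopersicum, of genotype HeinZ 1706, grown at 25 °C in a cycle of 12 h light and 12 h dark and harvested at 4 weeks of age. Samples were taken at 0, 4 and 8 h of the light phase (Light 0 h, Light 4 h and Light 8 h) and at 0, 4 and 8 h of the dark phase (Dark 0 h, Dark 4 h and Dark 8 h), with no other treatment in any group. Each time had 3 libraries of GMUCT, made from uncapped and cut RNA and read from the bare 5′ end, and 3 libraries of polyadenylated RNA. The series title concerns rapid RNA turnover in circadian regulation, and the question here is which transcripts differ over the day in uncapped RNA but hardly in mRNA.

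The cap at the 5′ end of an mRNA protects it and recruits the translation machinery. When the cap is removed, or when a transcript is cut inside by a small RNA with its Argonaute protein or by another endonuclease, the fragment is left with a bare 5′ end that a 5′ to 3′ exoribonuclease can digest. GMUCT reads such ends, while a poly(A) library reads the steady level set by synthesis and decay together. A GMUCT count marks ends present at harvest, so it is neither a rate nor a half-life. In leaves, many genes are known to follow the day in transcription and decay, through light and the circadian clock.

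GMUCT gene counts summed to between 15739253 and 20581411 per library and mRNA gene counts to between 6632784 and 27126312. The lowest count of any member in any library was 33 in GMUCT and 36 in mRNA, so no member rested on libraries at 0. The gene table used here matched 0 of the 34075 identifiers, so genes are given by identifier, and their names, functions, positions and sequences were not used. The leaf label was likewise not checked against marker genes. The labels do not say whether replicates came from separate plants, so the spread between them may be technical. These are bulk leaves, in which fewer cells of a type and less RNA per cell cannot be told apart. A GMUCT library stood apart among the members: replicate 2 of Dark 0 h, in which the median member lay 0.23 above its own mean over all 6 times (log2), against -0.02 and -0.01 in replicates 1 and 3. The rest showed a smaller rise in it, with medians of 0.08 in replicate 2 and -0.11 and -0.04 in replicates 1 and 3. In mRNA, replicate 2 of Dark 0 h lay at 0.09 in the members, against -0.07 and -0.10. Replicate 2 of Light 0 h lay at -0.16 in their mRNA, against 0.11 and 0.05. Over 8185 genes the GMUCT library of Dark 0 h replicate 2 still correlated best with the other libraries of its own time (r = 0.77). Values without it stand beside the main results on Dark 0 h.

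**Figure D1:**
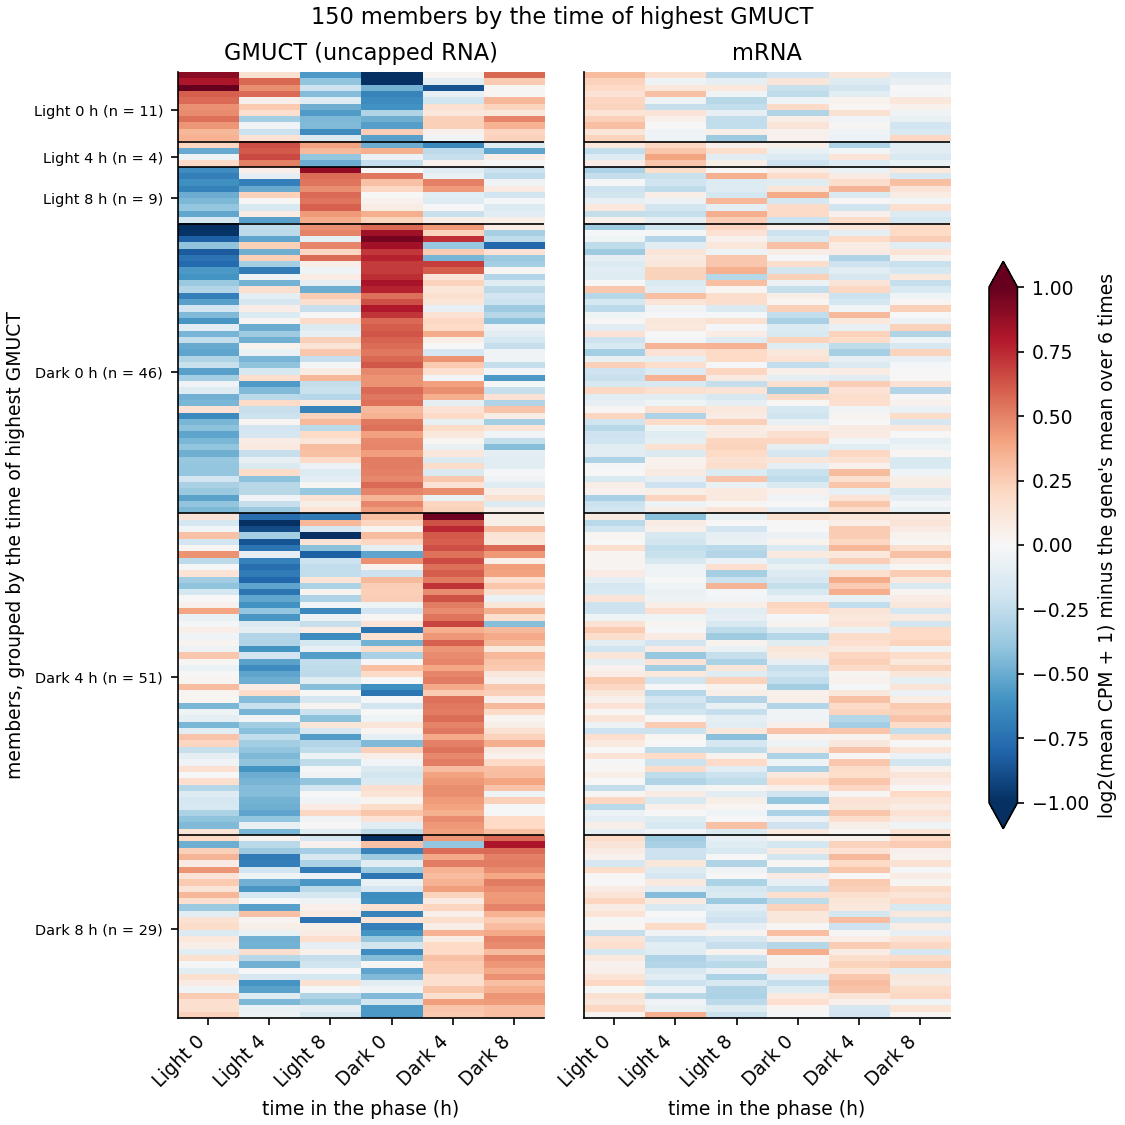
Heat map of the 150 members, 1 row each, in GMUCT (left) and mRNA (right) over the 6 times. Colour is log2(mean CPM + 1) of 3 libraries minus the gene's mean over the 6 times, cut at -1 and 1. Rows are grouped by the time of highest GMUCT, with the number of members at the left. The rule limits the right panel to a range under 0.6, and the left panel shows ranges of 0.86 to 1.98.

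The GMUCT range of the members ran from 0.86 to 1.98 on the log2 scale, with a median of 1.02, against a median of 0.45 in the rest. In mean CPM the highest time was 1.84 to 4.06 times the lowest, with a median of 2.09. The range was at least 1 in 85 members and at least 1.5 in 15. These values chose the members and are a description. The mRNA range of the members had a median of 0.50, against 0.45 in the rest, and 76 members (50.7%) lay at 0.5 or above, close under the limit, against 31.9% of the rest. An mRNA range under 0.3 was found in 11 members (7.33%), against 14.1% of the rest, so the members lay nearer the limit. The pooled SD between replicates of a time had a median of 0.22 in their mRNA and 0.20 in their GMUCT (log2), and the GMUCT range was 5.43 times its replicate SD in the median member and 2.86 times in the median gene of the rest. The levels of the members were close to those of the rest. Mean GMUCT ran from 6.62 to 716 CPM with a median of 38.4 CPM, against 39.99 CPM in the rest, and mean mRNA from 11.9 to 714 CPM with a median of 31.5 CPM, against 33.0 CPM.

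Most members had their highest GMUCT in the dark. In the light, 11 members had their highest mean at 0 h, 4 at 4 h and 9 at 8 h, and in the dark, 46 had it at 0 h, 51 at 4 h and 29 at 8 h. In this order these were 7.33, 2.67, 6.0, 30.7, 34.0 and 19.3% of the members. In the rest the shares were 3.79, 12.9, 5.98, 20.7, 33.8 and 22.8%. The dark times thus held 126 of 150 members (84%), against 77.3% of the rest, and 128 of the same members without replicate 2 of Dark 0 h. The lowest mean fell at the same 6 times in 42, 55, 17, 28, 2 and 6 members. These were 28.0, 36.7, 11.3, 18.7, 1.33 and 4.0% of the members. For the lowest mean the shares of the rest were 33.8, 21.98, 13.6, 24.2, 2.06 and 4.43%. Light 4 h was thus the lowest time more often in the members than in the rest, and every other time less often. The timing depends on how libraries are scaled. When totals were scaled by the trimmed mean of M values (TMM), the GMUCT scale moved by 0.13 (log2) at Light 0 h and by -0.13 at Dark 4 h. The same 150 members were then highest at a dark time in 110 cases (73.3%), against 44.0% of the rest. Light 0 h was then the lowest time in 22.7% of the members, against 11.9% of the rest. Light 4 h was lowest in 37.3%, against 16.7% of the rest. As these members were chosen without that scaling, the choice itself bears on these gaps. Under that scaling 130 members kept their highest time and 140 their lowest, Light 0 h became the highest time of 25, with 46 for Dark 0 h and 40 for Dark 4 h, the median GMUCT range was 0.96, and 130 members still had an mRNA range under 0.6. A list of 150 chosen under TMM scaling shared 98 genes with the members. It had 37, 11 and 13 genes highest at 0, 4 and 8 h of the light, and 33, 28 and 28 at those hours of the dark.

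The highest and the lowest GMUCT often fell at the same hour of opposite phases. This held for 76 members (50.7%), against 31.1% of the rest. Under TMM scaling it held for 73 members (48.7%), against 31.4% of the rest, and without replicate 2 of Dark 0 h again for 76 members, against 26.9% of the rest. The most common pairs were highest at Dark 4 h with lowest at Light 4 h (34 members), and highest at Dark 0 h with lowest at Light 0 h (30 members). Both were more frequent in the members than in all genes that met the limits, where they held 12.7 and 13.7%. Next came highest at Dark 8 h with lowest at Dark 0 h, in 15 members. That share was close to the 9.965% of all genes that met the limits, so this pair was not particular to the members. The reverse of the second pair, highest at Light 0 h with lowest at Dark 0 h, occurred in 8 members, and highest at Light 4 h with lowest at Dark 4 h in 1. These were 5.33 and 0.667% of the members, against 2.46 and 0.879% of all genes that met the limits. Without replicate 2 of Dark 0 h these 5 pairs held 34, 29, 16, 8 and 1 of the same members. At 8 h opposite phases were rarely paired. Highest at Dark 8 h with lowest at Light 8 h occurred in 3 members (2.0%), against 2.93% of all genes that met the limits. Its reverse occurred in 0 members, against 0.234%. The 3 libraries at a member's highest time all exceeded the 3 at its lowest time in 144 of 150 members, where 81.2% of all genes that met the limits showed the same. Without replicate 2 of Dark 0 h, which leaves 2 libraries at that time, it was 150 of 150, where 91.0% of all genes that met the limits showed the same.

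**Figure D2:**
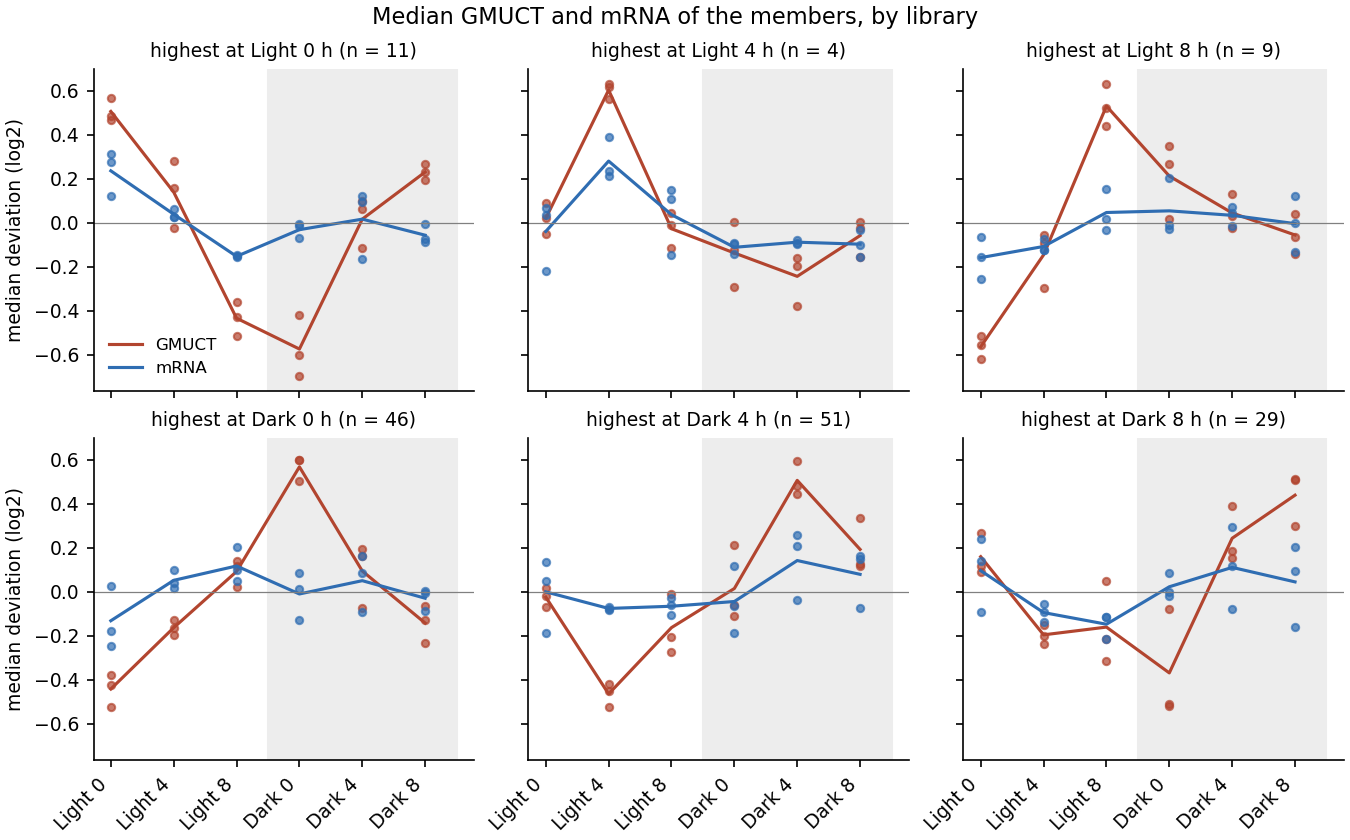
Median deviation of the members from their own mean over the 6 times (log2), in 6 panels by the time of highest GMUCT, for GMUCT and for mRNA. Points are the medians of single libraries, lines their mean over 3 replicates, and the shaded part is the dark phase. At the time of highest GMUCT the line lies between 0.44 and 0.60 in GMUCT and between -0.01 and 0.28 in mRNA.

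The 11 members highest at the start of the light include the 2 widest GMUCT ranges of the list. From the first to the last of the 6 times, their median GMUCT deviation was 0.51, 0.14, -0.43, -0.57, 0.02 and 0.23, and their mRNA lay at 0.24, 0.04, -0.15, -0.03, 0.02 and -0.06. GMUCT at Dark 0 h lay at -0.67 without replicate 2 of that time. It thus went down through the light phase and came back through the dark, and the class medians of the 3 Light 0 h libraries were above those of every other library. Their GMUCT to mRNA ratio of CPM had a median of 2.19. All 11 had somewhat more mRNA at Light 0 h than at their GMUCT low, by a median of 0.18.

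Solyc11g065070 had the widest range of all members, 1.98. Its GMUCT libraries held 179.6, 173 and 166 CPM at 0 h, 111, 107 and 90.6 CPM at 4 h and 64.1, 61.7 and 59.4 CPM at 8 h of the light phase, and 46.2, 40.2 and 42.5 CPM at 0 h, 98.2, 98.6 and 84.9 CPM at 4 h and 137, 133 and 142 CPM at 8 h of the dark phase. Each time was separate from its neighbours in this gene, and the replicate SD was 0.10 (log2). Its mRNA means were 41.2, 36.9, 27.3, 28.7, 35.7 and 30.04 CPM over the same times (n = 3 each), a range of 0.58, and its mRNA libraries lay between 21.3 and 47.9 CPM. In GMUCT, Solyc03g095610 followed with 87.4, 84.9 and 105 CPM at 0 h, 77.6, 80.3 and 76.02 CPM at 4 h and 39.8, 37.6 and 40.7 CPM at 8 h of the light phase, and 20.1, 23.3 and 25.9 CPM at 0 h, 48.6, 54.01 and 42.5 CPM at 4 h and 75.4, 56.6 and 55.8 CPM at 8 h of the dark phase. Here Light 0 h stood above every library of the other times, and Dark 0 h below them. The mRNA of Solyc03g095610 averaged 19.4, 15.7, 15.3, 17.8, 14.9 and 15.4 CPM, and its Dark 0 h libraries, at 23.5, 16.1 and 13.9 CPM, overlapped those of Light 0 h, at 21.1, 15.9 and 21.2 CPM.

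**Figure D3:**
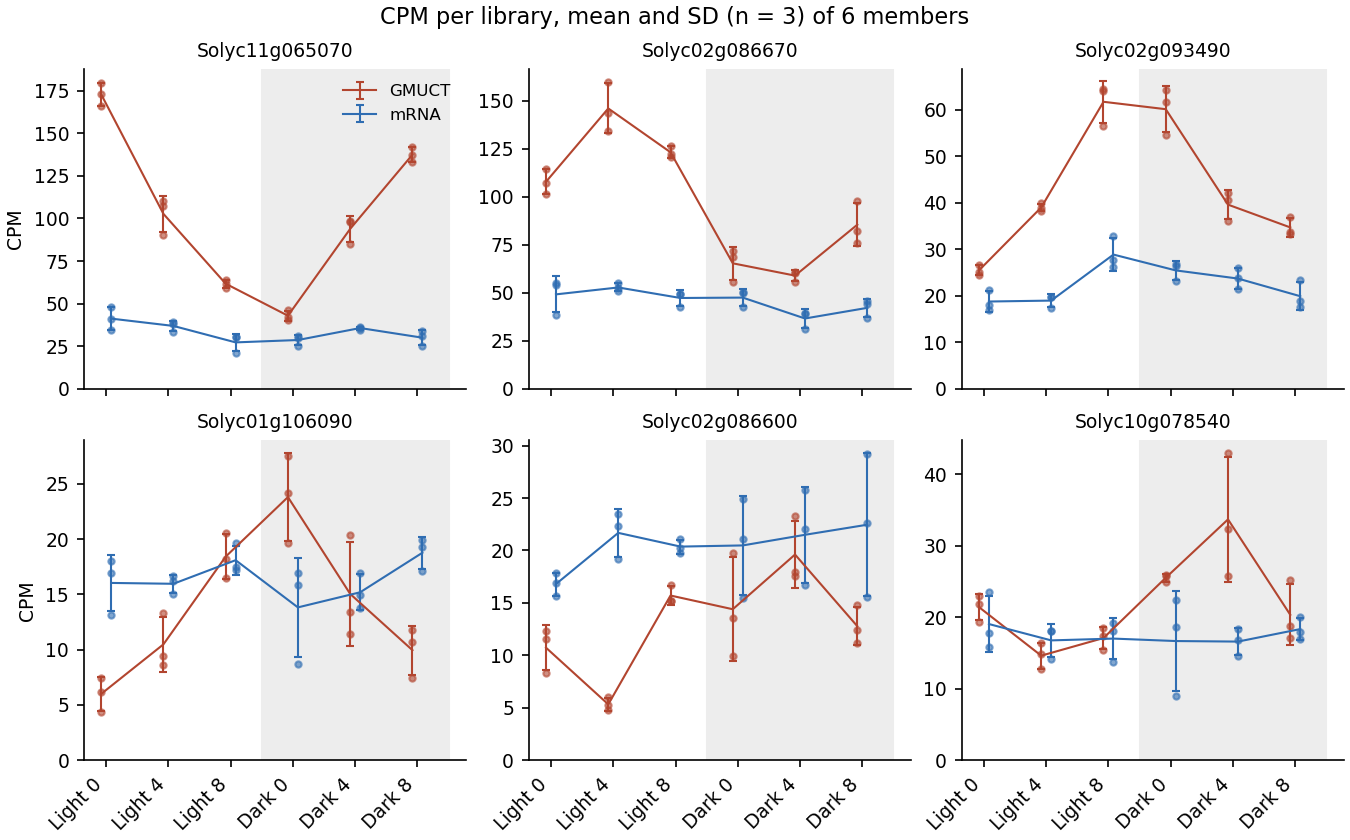
CPM of 6 members over the 6 times, with GMUCT in red and mRNA in blue. Points are single libraries, lines and bars the mean and SD of 3 libraries, and the shaded part is the dark phase. Solyc11g065070 is lowest in GMUCT at Dark 0 h and Solyc02g086670 at Dark 4 h, while Solyc02g093490, Solyc01g106090, Solyc02g086600 and Solyc10g078540 are lowest at Light 0 h or Light 4 h.

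The 4 members highest at Light 4 h had mRNA that followed GMUCT the most, with a median r of 0.74 over the 6 group means and mRNA higher at Light 4 h than at the GMUCT low in all 4, by a median of 0.45. Solyc02g086670 held 115, 101 and 107 CPM at 0 h, 159.9, 144 and 134 CPM at 4 h and 122, 121 and 127 CPM at 8 h of the light phase, and 71.9, 68.4 and 55.8 CPM at 0 h, 60.8, 60.2 and 55.9 CPM at 4 h and 82.3, 98.00 and 76.1 CPM at 8 h of the dark phase in GMUCT. The Light 4 h libraries were above all others and the Dark 4 h libraries, with 1 of Dark 0 h, were the lowest. Its mRNA averaged 49.2, 52.8, 47.3, 47.5, 36.6 and 42.2 CPM. In Solyc02g091490 GMUCT averaged 53.1, 117, 94.9, 97.3, 62.9 and 52.1 CPM and mRNA 54.2, 78.3, 73.05, 60.9, 63.1 and 59.8 CPM, so that both assays had their highest mean at Light 4 h.

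Of the 9 members highest at Light 8 h, 7 had their GMUCT low at Light 0 h. This pair held 4.67% of the members, a share close to the 4.16% of all genes that met the limits. The median GMUCT deviation of the 9 members was 0.53 at Light 8 h, against -0.56 at Light 0 h. Their mRNA lay at 0.05 at Light 8 h and at -0.16 at Light 0 h. Solyc02g093490 held 24.6, 25.2 and 26.7 CPM at 0 h, 38.9, 39.9 and 38.3 CPM at 4 h and 64.1, 56.5 and 64.5 CPM at 8 h of the light phase, and 64.2, 54.6 and 61.6 CPM at 0 h, 42.1, 40.7 and 36.02 CPM at 4 h and 33.8, 37.00 and 33.3 CPM at 8 h of the dark phase in GMUCT. Light 8 h and Dark 0 h overlapped, and Light 0 h was below all other libraries. The mRNA of Solyc02g093490 averaged 18.8, 18.98, 28.9, 25.5, 23.7 and 19.9 CPM, a range of 0.59 that only just met the limit, and its 3 Light 8 h libraries did not reach down to those of Light 0 h. Solyc11g072710, of high mRNA, had 446, 519 and 518 CPM at Light 8 h and 143, 165 and 209.9 CPM at Light 0 h in GMUCT, with 477 ± 16.2 and 381 ± 37.3 CPM of mRNA (SD, n = 3 each).

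Among the 46 members highest at Dark 0 h, mRNA followed GMUCT the least of the 6 classes. Their median GMUCT deviation was -0.44, -0.16, 0.09, 0.57, 0.09 and -0.14 over the 6 times, while mRNA lay at -0.13, 0.05, 0.12, -0.01, 0.05 and -0.03. The median r between the assays was 0.28, and mRNA was higher at Dark 0 h than at the GMUCT low in 25 of the 46, by a median of 0.07 over the class. All 46 kept the 3 libraries of their highest and lowest times apart, where 81.2% of all genes that met the limits did so. Without replicate 2 of Dark 0 h the median GMUCT deviation at that time was 0.63, and 42 of the 46 were still highest there. Without replicate 2 of Dark 0 h, a list chosen in the same way had 36 genes highest at Dark 0 h.

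Solyc01g106090 held 7.42, 6.16 and 4.38 CPM at 0 h, 8.64, 9.44 and 13.3 CPM at 4 h and 20.6, 16.5 and 18.2 CPM at 8 h of the light phase, and 27.6, 19.7 and 24.2 CPM at 0 h, 13.4, 11.4 and 20.3 CPM at 4 h and 7.46, 11.7 and 10.6 CPM at 8 h of the dark phase in GMUCT. The Dark 0 h libraries overlapped Light 8 h and Dark 4 h at their lower end, and Light 0 h was below all other times, though its highest library nearly reached replicate 1 of Dark 8 h. At Dark 0 h the mRNA of this gene averaged 13.8 ± 4.48 CPM, against 16.03 ± 2.56 CPM at Light 0 h (SD, n = 3 each), so that the assay means went opposite ways within overlapping mRNA libraries. Solyc04g017690, a member of high level, had 179, 198 and 109 CPM at 0 h, 305, 315 and 370.0 CPM at 4 h and 538, 508 and 575 CPM at 8 h of the light phase, and 721, 543 and 489 CPM at 0 h, 488, 539.6 and 560.3 CPM at 4 h and 344, 521 and 379 CPM at 8 h of the dark phase. Light 0 h stood below every other time, and Light 8 h, Dark 0 h and Dark 4 h overlapped. Its mRNA averaged 163, 181, 242, 216, 224 and 239 CPM and was also lowest at Light 0 h.

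Dark 4 h was the most common time of highest GMUCT, though under TMM scaling it came after Dark 0 h. It held 51 members (34.0%), a share close to the 33.8% of the rest in CPM without further scaling. Under TMM scaling the shares were 26.7% of the members and 9.90% of the rest, with the members chosen without that scaling. The median GMUCT deviation of these 51 members was -0.02, -0.46, -0.16, 0.01, 0.51 and 0.19 over the 6 times, beside -0.001, -0.08, -0.07, -0.04, 0.14 and 0.08 in mRNA. mRNA was higher at Dark 4 h than at the GMUCT low in 41 of the 51, by a median of 0.27. This is also the time at which TMM scaling lowers both assays most.

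Solyc02g086600 held 12.3, 11.6 and 8.3 CPM at 0 h, 5.2, 4.77 and 5.97 CPM at 4 h and 15.2, 16.7 and 15.2 CPM at 8 h of the light phase, and 13.5, 19.7 and 9.9 CPM at 0 h, 17.9, 17.6 and 23.3 CPM at 4 h and 14.7, 12.4 and 11.1 CPM at 8 h of the dark phase in GMUCT. Light 4 h was below all other libraries, whereas Dark 4 h overlapped Dark 0 h because of replicate 2 there. The mRNA of Solyc02g086600 averaged 21.5 ± 4.6 CPM at Dark 4 h, against 21.7 ± 2.26 CPM at Light 4 h, a difference within the replicate SD. Solyc09g007640 had GMUCT means of 24.2, 12.6, 13.1, 27.5, 44.4 and 23.1 CPM, and its mRNA means of 49.1, 34.5, 43.7, 51.7, 50.3 and 49.8 CPM were lowest at Light 4 h as well. The next identifier below it, Solyc09g007630, was also a member, the only such pair in the list. Its GMUCT means were 13.5, 15.7, 15.5, 28.1, 24.97 and 21.3 CPM, highest at Dark 0 h rather than Dark 4 h. The strand setting of the counting is not known, and whether these genes overlap was not tested.

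The members with the narrowest mRNA, picked out after their values were seen, were also highest at Dark 4 h. In mRNA, Solyc10g078540 held 23.5, 15.9 and 17.7 CPM at 0 h, 14.1, 18.04 and 18.1 CPM at 4 h and 19.2, 13.8 and 18.04 CPM at 8 h of the light phase, and 18.6, 22.5 and 8.95 CPM at 0 h, 14.6, 18.3 and 16.8 CPM at 4 h and 17.98, 20.02 and 16.99 CPM at 8 h of the dark phase, where every time overlapped every other. Its group means stayed between 16.6 and 19.03 CPM. In GMUCT it held 23.00, 19.4 and 21.8 CPM at 0 h, 12.7, 14.8 and 16.3 CPM at 4 h and 17.3, 18.4 and 15.5 CPM at 8 h of the light phase, and 25.7, 25.9 and 24.9 CPM at 0 h, 32.3, 25.7 and 43.03 CPM at 4 h and 25.2, 17.03 and 18.8 CPM at 8 h of the dark phase, and the Light 4 h libraries did not reach those of Dark 4 h or Dark 0 h. Solyc01g086710 had mRNA means of 15.8 to 18.2 CPM and GMUCT means of 34.7, 24.02, 35.1, 36.8, 53.3 and 41.02 CPM.

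Overlapping libraries were most frequent among the 29 members highest at Dark 8 h. Their median GMUCT deviation was 0.16, -0.20, -0.16, -0.37, 0.24 and 0.44 over the 6 times, and mRNA lay at 0.10, -0.10, -0.15, 0.02, 0.11 and 0.04. At Dark 0 h replicates 1 and 3 had medians of -0.52 and -0.51, but replicate 2 had -0.08. Without replicate 2 the class medians were 0.15, -0.22, -0.17, -0.53, 0.23 and 0.43 over the 6 times, and all 29 were still highest at Dark 8 h. The 3 libraries of the highest and lowest times overlapped in 5 of these members and in 1 of all others, and in 0 of the 150 without replicate 2 of Dark 0 h. Of all genes that met the limits, 81.2% had no overlap with all libraries and 91.0% without that replicate. With only 2 libraries left at Dark 0 h, overlap is also less likely. Without replicate 2 of Dark 0 h the rule put 45 genes highest at Dark 8 h and 59 lowest at Dark 0 h, against 29 and 28 with all libraries.

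Solyc04g050520 shows this. Its GMUCT libraries held 9.94, 22.7 and 25.9 CPM at 0 h, 17.7, 18.2 and 16.2 CPM at 4 h and 11.7, 26.8 and 6.17 CPM at 8 h of the light phase, and 1.93, 17.2 and 3.65 CPM at 0 h, 17.7, 32.1 and 19.9 CPM at 4 h and 35.4, 22.9 and 18.6 CPM at 8 h of the dark phase, with a replicate SD of 0.79 (log2), the widest among the members. Replicate 2 was the highest library at Light 8 h, Dark 0 h and Dark 4 h, and the highest Dark 0 h library only just missed the lowest of Dark 8 h. Solyc11g045160 and Solyc02g050240, named after their values were seen for the widest ranges with overlapping libraries, had 6.19, 23.6 and 9.97 CPM at Dark 0 h and 2.22, 15.3 and 6.68 CPM at Dark 0 h in GMUCT. Replicate 2 of Dark 0 h was at least 2-fold above both other libraries in 8 members (on CPM + 1), of which 7 were lowest at Dark 0 h, and in 2 of the 1556 genes of the rest. Replicate 1 of Dark 0 h was at least 2-fold below both others in 6 members and in 5 genes of the rest. In all 8, replicate 2 of Light 8 h was also above both of its companions, which held for 72 of the 150 members. Solyc01g104720 had 84.6, 203 and 116 CPM at Dark 8 h and 66.3, 58.9 and 37.02 CPM at Light 0 h, and here it was replicate 1 of Dark 0 h that stood high, with 159, 68.8 and 52.7 CPM at that time. The most abundant member in GMUCT, Solyc07g017780, picked after its values were seen, had GMUCT means of 929, 598, 421, 528, 868 and 951 CPM and mRNA means of 511, 409, 439, 369.5, 544 and 444 CPM.

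Within the mRNA limit, mRNA was higher at the time of highest GMUCT than at the time of lowest GMUCT in 110 members (73.3%), a share close to the 68.4% of all genes that met the limits. The median mRNA difference between these times was 0.18 in the members and 0.11 in the rest (log2). Over the 6 group means, r between the assays had a median of 0.43 in the members and 0.31 in the rest, was at least 0.7 in 40 members (26.7%), against 18.8% of the rest, and at or under 0 in 35 (23.3%), against 28.5% of the rest. Each such r rests on 6 points that share the libraries of a time, and is a description.

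By r over the 6 group means, the most opposite courses were in Solyc03g005190 and Solyc08g076310, picked after their values were seen, with r of -0.89 and -0.80. In Solyc03g005190 GMUCT held 39.8, 39.8 and 40.4 CPM at 0 h, 27.5, 38.7 and 39.2 CPM at 4 h and 49.9, 44.4 and 44.7 CPM at 8 h of the light phase, and 90.9, 50.1 and 76.9 CPM at 0 h, 57.6, 43.8 and 67.3 CPM at 4 h and 36.4, 31.9 and 50.5 CPM at 8 h of the dark phase. The mRNA of Solyc03g005190 held 53.2, 41.1 and 39.5 CPM at 0 h, 41.8, 42.9 and 43.2 CPM at 4 h and 36.4, 36.9 and 38.8 CPM at 8 h of the light phase, and 33.9, 40.7 and 20.4 CPM at 0 h, 31.1, 37.4 and 33.7 CPM at 4 h and 29.8, 31.8 and 50.5 CPM at 8 h of the dark phase. GMUCT at Dark 0 h was above Light 0 h and Light 4 h in all libraries, while mRNA at Dark 0 h was below Light 4 h in all 3 libraries and spread widely among them, with replicate 3 the lowest.

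The level of uncapped RNA relative to mRNA differed widely among the members, as it did in the rest. The ratio of mean GMUCT CPM to mean mRNA CPM ran from 0.163 to 10.2 in the members, with a median of 0.975. In the rest it ran from 0.069 to 20.3, with a median of 1.15. It lay above 1 in 72 members (48.0%), against 57.5% of the rest. The CPM of each assay are shares of that assay's own total, so a ratio of 1 has no absolute meaning. Solyc11g062190 had the highest ratio. Its GMUCT libraries held 305, 305 and 275 CPM at 0 h, 183, 194 and 191 CPM at 4 h and 211, 206 and 180.1 CPM at 8 h of the light phase, and 228, 237 and 246 CPM at 0 h, 324, 321 and 418 CPM at 4 h and 380.0, 334 and 319 CPM at 8 h of the dark phase. Its mRNA means were 26.2, 20.98, 21.8, 30.2, 31.8 and 27.7 CPM. All GMUCT libraries of Dark 4 h and Dark 8 h exceeded those of the 4 other times. Next came gene:Solyc07g064890.1 with a ratio of 4.52 and GMUCT means of 125, 96.3, 84.7, 77.04, 117 and 143 CPM. At the other end Solyc10g085580 had GMUCT means of 26.7, 18.7, 27.2, 26.8, 33.5 and 35.4 CPM beside mRNA means of 171, 165, 139, 157, 208 and 194 CPM. Solyc07g043560 had a ratio of 0.2, with GMUCT means of 48.3, 40.2, 31.4, 54.9, 67.1 and 64.3 CPM. The highest GMUCT mean was 1.87 and 1.85 times the lowest in the 2 genes of high ratio, and 1.9 and 2.14 times in the 2 of low ratio.

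Tests across all genes describe the same values, since the rule used them, and support nothing further. By edgeR's quasi-likelihood F-test over the 6 times, at a Benjamini-Hochberg adjusted p under 0.05, GMUCT passed in 133 of 150 members, where 58.4% of all 20696 genes tested passed. mRNA passed in 48 members, where 70.9% of 19711 genes passed, so the mRNA of those 48 differed among times by more than its replicate spread despite the limit. The ratio of GMUCT to mRNA passed in 101 members, where 53.7% of 19161 genes passed. GMUCT and the ratio passed while mRNA did not in 62 members, where 3.43% of the 19161 genes in all 3 fits and 11.7% of the 1706 genes that met the limits did so. GMUCT did not pass in 17 members, where 39.1% of those 19161 genes did not. Among these members were Solyc04g050520, Solyc01g104720, Solyc11g045160 and Solyc02g050240. Of the members of narrowest mRNA, the ratio passed in Solyc10g078540 but not in Solyc01g086710. Without replicate 2 of Dark 0 h, GMUCT passed in 143 members and the ratio in 105. A p that misses the threshold does not show an unchanged mRNA.

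The contrasts between times, fitted on TMM-scaled counts, say when in the day members passed the same threshold in GMUCT. At Light 4 h against Light 0 h, 18 members were higher and 56 lower, where 14.8 and 15.8% of all genes passed in those directions. Light 8 h against Light 4 h gave 23 higher and 15 lower (6.76 and 6.59% of all genes), and Dark 0 h against Light 8 h gave 19 higher and 8 lower (4.67 and 4.01%). At Dark 4 h against Dark 0 h, 41 were higher and 25 lower (12.8 and 13.0%). Dark 8 h against Dark 4 h gave 7 higher and 4 lower (1.81 and 2.38%), and Dark 8 h against Light 0 h gave 7 higher and 6 lower (2.34 and 3.91%). In the members the lower calls of early light and the higher calls of Dark 4 h were thus the most frequent. Light 4 h against Light 0 h and Dark 4 h against Dark 0 h also gave the most calls over all genes. That these steps gave the most calls is therefore not particular to the members. Over all genes the directions were close, with 14.8% higher and 15.8% lower in the light step and 12.8 and 13.0% in the dark step. In the members they were less even, with 18 higher and 56 lower, and 41 higher and 25 lower.

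Several of these counts moved by over 1.5 times with 1 library. The 18 higher at Light 4 h against Light 0 h were 9 and 6 without replicate 1 or 2 of Light 0 h, and 10, 9 and 10 without replicate 1, 2 or 3 of Light 4 h. For Light 8 h against Light 4 h, the higher count was 15 without replicate 1 of Light 4 h and also 15 without replicate 3 of Light 8 h, and the lower count was 9 without replicate 1 of Light 8 h. For Dark 0 h against Light 8 h, the higher count was 10, 7 and 9 without replicate 1, 2 or 3 of Light 8 h and 9 without replicate 3 of Dark 0 h. The lower count of that step was 19 and 3 without replicate 2 or 3 of Dark 0 h, and 4 and 5 without replicate 2 or 3 of Light 8 h. Dark 4 h against Dark 0 h gave 54 higher and 26 lower without replicate 2 of Dark 0 h, and 15 lower without replicate 2 of Dark 4 h. Over all 18 libraries left out in turn, Dark 8 h against Dark 4 h gave 1 to 7 higher and 0 to 5 lower, and Dark 8 h against Light 0 h gave 3 to 7 higher and 5 to 7 lower.

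The only reading in libraries that did not choose the genes comes from leaving out a replicate number. The rule was applied to 2 replicate numbers, and the difference between the highest and lowest time was read in the third. The 150 genes so chosen shared 88, 77 and 88 genes with the members when number 1, 2 or 3 was left out. The direction was the same in the libraries left out in 147, 139 and 147 of 150 genes, where 89.2, 88.2 and 85.9% of all genes that met the limits without that number showed the same. The median GMUCT difference there was 0.90, 0.69 and 0.85 (log2), beside 0.99, 1.06 and 1.03 in the libraries that chose, and 0.37, 0.32 and 0.29 in the rest. A difference of at least 0.5 was found in 125, 97 and 121 of the 150 genes, against 32.0, 27.7 and 23.8% of the rest. The mRNA difference between the same times had a median of 0.17, 0.18 and 0.31 in the libraries left out, against 0.02, 0.14 and 0.15 in the rest. It was under 0.6 in size in 119, 128 and 117 genes (79.3, 85.3 and 78.0%), against 84.6, 89.3 and 89.9% of the rest.

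**Figure D4:**
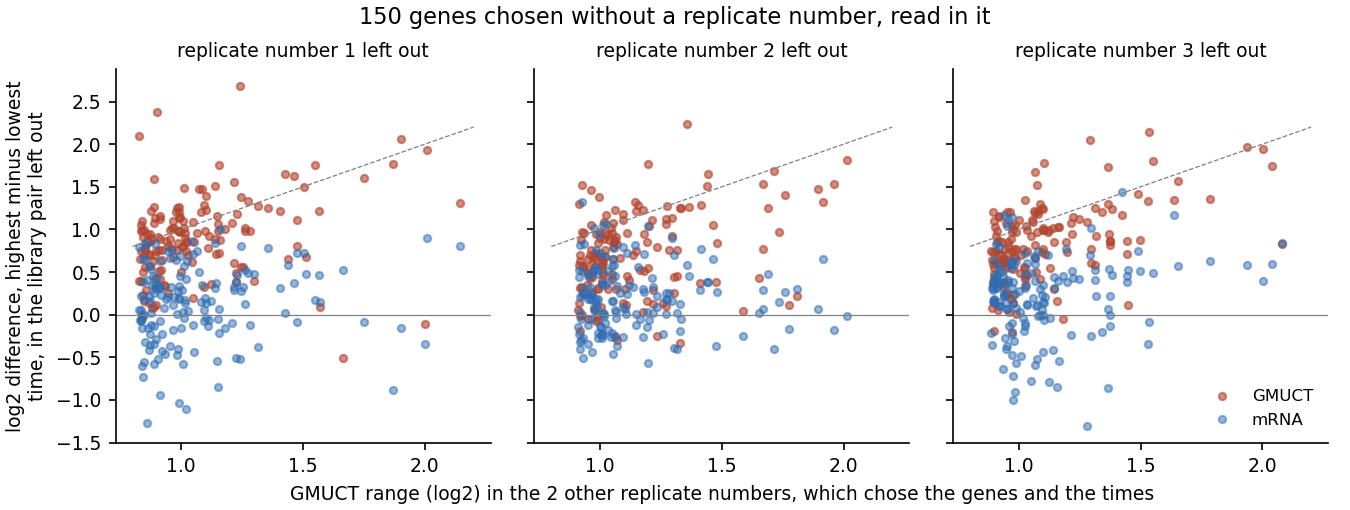
Difference between a gene's highest and lowest GMUCT time in the libraries of the replicate number left out (vertical axis, log2), against its GMUCT range in the 2 other replicate numbers (horizontal axis, log2), for the 150 genes chosen by those 2. Red points are GMUCT, blue points the mRNA difference between the same times, and the dashed line marks equal values. The medians on the vertical axis are 0.90, 0.69 and 0.85 in GMUCT and 0.17, 0.18 and 0.31 in mRNA.

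The weaker result for number 2 sat with 1 time. Of the genes chosen without number 2, 56 were lowest at Dark 0 h, and their median difference in number 2 was 0.31, with 46 in the same direction. In the 94 that were lowest at another time it was 0.93, with 93 in the same direction. The 47 genes highest at Dark 8 h had a median of 0.30 in number 2, against 0.70 and 0.74 in the genes of that class when number 1 or 3 was left out. Genes highest at Dark 4 h had medians of 0.99, 0.94 and 0.86, with the same direction in all 55, 39 and 35 of them. For genes highest at Dark 0 h the medians were 0.77, 0.90 and 0.87. Each of these values compares single libraries.

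At the edge of the list, Solyc05g011990 and Solyc09g098520, the last inside, had GMUCT ranges of 0.8654 and 0.8641 (log2). Solyc05g021530 and gene:Solyc01g081050.4, the first outside, had 0.8638 and 0.8633. The values run on without a gap, so the number of 150 is a choice. In Solyc09g098520 GMUCT averaged 51.4 ± 2.98 CPM at Dark 0 h, against 27.8 ± 1.28 CPM at Light 0 h (SD, n = 3 each), with mRNA at 26.00 ± 4.21 CPM and 24.8 ± 4.07 CPM.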

How the data were processed

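The values deposited by the authors were whole-number read counts per gene, not normalised, 1 table per library with 34075 identifiers and 5 counters of reads outside genes, which were left out of totals and tests. The tools used include cutadapt, HTSeq and STAR 2.4.2a, per the submitters' processing notes, which give no order. The genome build and the strand setting were not given in the sources used here, so a gene and an overlapping antisense neighbour cannot be told apart. Reads in genes made up 54.4 to 85.3% of GMUCT counts and 88.0 to 90.2% of mRNA counts, and reads at several positions, 8.6 to 40.2% in GMUCT and 2.11 to 3.52% in mRNA, were not counted in genes.

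Groups came from the sample labels, and all 36 libraries were used. CPM are counts per 1000000 gene counts, without further scaling, with a pseudocount of 1 on the log2 scale. The replicate SD of a gene is pooled over the 6 times. The counts were tested with edgeR 4.0.16 in R 4.3.3 (filterByExpr, TMM, glmQLFit and glmQLFTest, 6 group means per assay, or 12 over both for the ratio as the interaction of assay and time), adjusted over all genes tested, and tried on simulated counts before use. Alternatives were DESeq2 1.42.0, other scaling (RLE size factors), no filter, a replicate block, other limits of the rule, and leaving out each library. Same-numbered libraries of different times deviated together in 19 of 45 GMUCT pairs and 9 of 45 mRNA pairs (r over 0.1). Their r ran from -0.521 to 0.544 in GMUCT and from -0.326 to 0.319 in mRNA. The median r was -0.005 and -0.034, against -0.043 and -0.011 between libraries of other numbers. Replicate numbers were not taken to pair samples in the main fits. Figures and tables used Python 3.11.15.

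The members and all lists were chosen with earlier results of these data known. Genes were to be named by widest range, by time of highest GMUCT with no overlap of libraries, by ratio of GMUCT to mRNA and at the edge of the list. As no names could be matched, at most 2 per list were taken, and the planned gene lists by function and promoter motifs were not run. Genes named for other reasons are marked as such.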

Additional observations from a re-analysis of the deposited data

How the results depend on the processing

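Leaving out each library in turn gave 126 to 143 members called in GMUCT, 32 to 53 in mRNA and 91 to 105 in the ratio, and lists sharing 115 to 148 genes with the 150 members, with a median GMUCT range of 0.998 to 1.13, a median mRNA range of 0.489 to 0.510 and 78.7 to 86% highest at a dark time. The steps gave 6 to 20 higher and 43 to 58 lower for Light 4 h against Light 0 h, 15 to 28 and 9 to 16 for Light 8 h against Light 4 h, 7 to 22 and 3 to 19 for Dark 0 h against Light 8 h, 28 to 54 and 15 to 26 for Dark 4 h against Dark 0 h, 1 to 7 and 0 to 5 for Dark 8 h against Dark 4 h, and 3 to 7 and 5 to 7 for Dark 8 h against Light 0 h.

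Changing the rule moved the list. It shared 98 genes with the members under TMM scaling and 91 with group medians. With a minimum of 20 CPM it shared 86, and with an mRNA limit of 0.4 it shared 38. These are the members that met the stricter limits, since such limits leave the ranking by GMUCT range as it was. When 75 genes were taken, all 75 were members by construction. These last overlaps therefore do not show how stable the list is. The share highest at a dark time was 59.3% under TMM, 77.3% with a pseudocount of 5, 74.7% with group medians and 78.7% in the first 75. The median GMUCT range was 0.898 with the 20 CPM minimum, 0.721 with the 0.4 limit and 1.20 in the first 75, and the median mRNA range was 0.322 with the 0.4 limit. For Dark 8 h against Dark 4 h, 2 members were lower with RLE size factors, 2 with no filter and 8 with DESeq2. For Dark 8 h against Light 0 h, 4 were higher with no filter, and for Dark 0 h against Light 8 h, 14 were lower with DESeq2. The cause of these differences was not tested.

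With the replicate block, GMUCT was called in 135 members, mRNA in 40 and the ratio in 100, and 12 were lower at Dark 0 h against Light 8 h. The block moved no count by over 1.5 times. A gene with few GMUCT reads has a wider counting error, and the lowest group means of the members are a few CPM.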

Other observations

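Identifiers beginning Solyc02g made up 28 members (18.7%), against 9.13% of the rest, those beginning Solyc03g 21 members (14%), against 10.2%, and those beginning Solyc07g 17 members (11.3%), against 7.33%. Solyc08g and Solyc09g were the prefixes of 5 members each (3.33%), against 7.78 and 7.01% of the rest, and Solyc10g of 4 members (2.67%), against 6.49%. The shares of the other 6 prefixes differed by less than 3 percentage points. The 12 prefixes were not tested, so no difference in spread is claimed.

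As a share of all gene counts, the members took a median of 0.898, 0.806 and 0.861% of GMUCT counts at 0, 4 and 8 h of the light, and of 0.910, 1.10 and 1.04% at the same hours of the dark. The 3 libraries of Light 4 h, at 0.796 to 0.807%, lay below all others, and those of Dark 4 h, at 1.05 to 1.16%, overlapped those of Dark 8 h, at 1.00 to 1.11%. In mRNA the share ran from 0.906 to 1.09% over all 18 libraries.

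Read in single replicate numbers, the 150 members had a median GMUCT range of 1.19, 1.05 and 1.15 for numbers 1, 2 and 3 and a median mRNA range of 0.698, 0.651 and 0.696 (log2), above the limit of 0.6 that the means of 3 libraries met. The highest GMUCT fell at a dark time in 84.7, 82 and 75.3% of them.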
